A study of Mus musculus with 7 samples.

Results

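Oogenesins and the PRAME-related genes form 1 family of leucine-rich repeat proteins that is greatly expanded in the mouse. The family was taken here as every gene whose symbol was Oog, Pramel or Pramef followed by a number, which gave 16 of the 55364 genes listed: Oog1 to Oog4, Pramel1, Pramel3 to Pramel7, and Pramef6, Pramef8, Pramef12, Pramef17, Pramef20 and Pramef25. All 16 matched a RefSeq gene named as an oogenesin or a Pramel gene. RefSeq names Pramef12 as Pramel13, Pramef20 as Pramel15, Pramef17 as Pramel14 and Pramef8 as Pramel12.

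RNA-seq was performed on mini-oocytes, oocyte-like cells made in vitro from mouse embryonic stem cells (mESCs) by forced expression of transcription factors. All groups derived from the female BVSC H18 mESC line of hybrid 129/C57BL6 strain and were induced on laminin with SCF, the ROCK inhibitor Y-27632 and Shield1, the last of which stabilized the factors through a fused destabilization domain and was left out of fresh medium from day 12. 4F-mini-oocytes received 4 factors (Nobox, Figla, Tbpl2 and Lhx8) and were collected at day 7 (n = 2 libraries) and day 21 (n = 3), whereas 8F-mini-oocytes also received Stat3, Dynll1, Sub1 and Sohlh1, carried an Npm2-mCherry reporter and were collected at day 21 only (n = 2). Each library was a pool, of 1000 cells at day 7 and of 10 cells at day 21, so that day and pool size cannot be told apart. No gonadal somatic cells were added in culture. Whether libraries of a group came from separate inductions is not given in the sources used here, so the p-values measure the spread between these libraries, which may be technical. In pooled cells, fewer cells of a type and less RNA per cell cannot be told apart.

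PRAME-type proteins are known as substrate receptors of CUL2 ubiquitin ligases: the leucine-rich repeats hold a target protein while a short N-terminal motif binds elongin and cullin subunits. Pramel7 is the best described of them in mESCs, where it directs the DNA methylation factor UHRF1 to the proteasome and helps to keep DNA methylation low in the naive state. Oogenesins were first found as transcripts of mouse oocytes, and their roles are less well understood.

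In the annotation of build GRCm38, 12 of the 16 genes lay within 1014 kb of chromosome 4 (chr4:143394428-144408464), 4 on the plus and 8 on the minus strand. Oog1 was the only member on chromosome 12 (chr12:87602688-87608850), Pramel6 and Pramel7 were neighbours on chromosome 2 and Pramel3 was on chromosome X. The stretches upstream of the 4 oogenesins and of Pramef12, the most abundant member, are shown because these genes carry most of the signal described here. Each is 250 bases long, ends at the base before the RefSeq transcription start (build GRCm38.p6) and is read towards the gene. Capitals mark E-boxes, the letters CANNTG, which are the general recognition sequence of basic helix-loop-helix factors such as FIGLA.
Oog4 (chr4:143450325-143450574, minus strand): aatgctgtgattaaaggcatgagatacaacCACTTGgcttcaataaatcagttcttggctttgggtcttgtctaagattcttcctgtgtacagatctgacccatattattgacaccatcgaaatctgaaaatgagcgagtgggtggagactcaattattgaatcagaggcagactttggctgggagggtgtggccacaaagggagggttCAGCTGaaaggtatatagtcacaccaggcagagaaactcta
Oog3 (chr4:144162652-144162901, minus strand): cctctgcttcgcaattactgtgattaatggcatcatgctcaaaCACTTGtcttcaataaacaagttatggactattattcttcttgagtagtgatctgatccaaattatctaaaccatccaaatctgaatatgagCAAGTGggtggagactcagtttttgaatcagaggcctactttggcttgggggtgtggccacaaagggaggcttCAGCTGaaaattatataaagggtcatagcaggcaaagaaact
Oog2 (chr4:144190467-144190716, plus strand): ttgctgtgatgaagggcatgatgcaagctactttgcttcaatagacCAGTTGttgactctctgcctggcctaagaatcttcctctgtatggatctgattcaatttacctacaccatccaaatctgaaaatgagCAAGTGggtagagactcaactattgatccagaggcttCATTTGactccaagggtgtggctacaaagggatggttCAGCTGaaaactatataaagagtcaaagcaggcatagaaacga
Oog1 (chr12:87602415-87602664, plus strand): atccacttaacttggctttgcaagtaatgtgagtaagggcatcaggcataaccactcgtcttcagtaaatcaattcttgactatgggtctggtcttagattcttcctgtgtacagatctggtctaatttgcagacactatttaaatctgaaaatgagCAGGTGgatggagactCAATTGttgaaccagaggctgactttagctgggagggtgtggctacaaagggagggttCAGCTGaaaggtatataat
Pramef12 (chr4:144408465-144408714, minus strand): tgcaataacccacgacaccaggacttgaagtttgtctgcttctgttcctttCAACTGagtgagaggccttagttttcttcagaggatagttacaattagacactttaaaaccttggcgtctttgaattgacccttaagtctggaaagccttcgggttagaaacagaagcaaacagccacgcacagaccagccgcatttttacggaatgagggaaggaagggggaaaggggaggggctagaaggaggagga

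The 4 oogenesin sequences were related to one another. Over the whole RefSeq window, which runs on to 50 bases past the start, Oog4 matched Oog2 at 76.7%, Oog3 at 72.2% and Oog1 at 68.6% of aligned positions. All 4 held the 11 bases TTCAGCTGAAA, which include an E-box, beginning at position -43 in Oog4, -44 in Oog3, -45 in Oog2 and -21 in Oog1, where -1 is the base before the start. Searched on both strands, this stretch was present in 17 of the 32851 windows of the table (0.0517%), and 7 of these belonged to the 41 windows of RefSeq Oog and Pramel genes. A window of Gm2042, a gene on chromosome 12 that shares most of the transcript sequence of Oog1, held it at the same place as Oog1. The window of Pramef12 did not contain it. The stretch was found by searching the oogenesin windows against each other, with the direction of these genes known, and a match is a description of letters and not of a bound site.

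Motifs of the classes to which the induced factors belong were counted in the same windows. An E-box was present in 14 of the 15 member windows (93.3%), with a median of 2 per window, against 72.3% of all windows and a median of 1. The homeodomain core TAATTA, of the kind bound by LHX8 and NOBOX, was in none of the 15 and in 5.29% of all windows. Its variant TAATTG was in 3 member windows (Oog3, Oog4 and Pramef12; 20%) and in 8% of all windows. The TATA-type sequence TATAAA was in 2 member windows, those of Oog3 and Oog2, at positions -29 and -30, against 13.6% of all windows. Both strands were searched for each motif.

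Several members are near-copies of other genes, and only uniquely mapped reads were counted, so that reads from shared stretches are missing from the levels. The share of a gene's 50-base transcript words that also occurred in transcripts of another gene was 89.0% for Oog1, 87.4% for Pramel4, 81.8% for Pramel3, 73.5% for Pramef17 and 63.5% for Pramef25. It was 33.7% for Pramef6, 33.4% for Oog2, 25.9% for Pramel5 and 19.7% for Oog3. Oog4 (0.707%) and Pramel7 (1.43%) shared few words, and Pramef12, Pramef20, Pramef8, Pramel1 and Pramel6 shared none. The levels of Oog1 and Pramef17 in particular are therefore uncertain, whereas Oog3, Oog4 and Pramef12 rest mostly on sequence of their own. Oog1 had the most in common with Gm2042 (85.8% of its words) and Gm10436 (58.6%), and Pramef17 with Gm13128 (73.5%). In coding sequence, Oog3 and Oog1 were 80.4% identical, Oog4 and Oog1 78.1%, and Pramel4 and Pramel5 85.2%.

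The libraries were those of oocyte-like cells. An estimate from the smallest values placed 9060707 to 17207365 reads on genes per library, and 3 reads on a transcript of 1 kb corresponded to 0.514 to 0.764 TPM. The 10 oocyte markers examined (among them Zp3, Gdf9 and Nlrp5) summed to 12661 to 38432 TPM per library. From day 7 to day 21 in 4F-mini-oocytes, 9 of the 10 were called higher (limma adjusted p under 0.05), against 25.3% of all genes tested. The 14 markers of granulosa and other ovarian somatic cells summed to 5.99 to 17.5 TPM, with Inha and Lum at 0 in every library and 0 of the 5 that could be tested called by limma between days or between 4F and 8F at day 21 (at an unadjusted p under 0.05, 0 between days and 1, Foxl2, between 4F and 8F). Of the 8 factors introduced in 8F, 7 were called higher by limma at day 21 than at day 7 in 4F, against the same 25.3%. Only Nobox, Figla, Tbpl2 and Lhx8 were introduced in 4F, so only their values may include introduced copies there. In 8F this holds for all 8. Sohlh1, at 0 in both day 7 libraries, was higher in 8F than in 4F at day 21 (130 against 53.3 TPM on average), and Lhx8 and Figla were lower.

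The summed level of the 16 genes was lowest in 4F at day 7, higher in 4F at day 21 and highest in 8F at day 21 (the stacked plot of summed TPM). The limits on 8F against 4F given below apply to this sum too. The sum was 237 and 269 TPM in the 4F libraries at day 7, 974, 895 and 962 TPM in those at day 21, and 1979 and 1781 TPM in the 8F libraries. The 3 groups did not overlap, with means of 253.2 ± 22.3 (SD, n = 2), 943.6 ± 42.7 (n = 3) and 1880.1 ± 140.2 TPM (n = 2). The make-up of the sum changed between days and was nearly the same in 4F and 8F at day 21. Oogenesins made up 6.88% of the summed mean at day 7, 51.7% in 4F at day 21 and 52.1% in 8F, while Pramef12 went from 77.6% to 42.3% and 43.0%. Oog3 alone held 2.61%, 31.6% and 30.3%, and Oog4 1.45%, 14.7% and 14.7%. The number of members with a group mean of at least 10 TPM was 3 at day 7 and 7 and 8 in 4F and 8F at day 21.

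**Figure D1:**
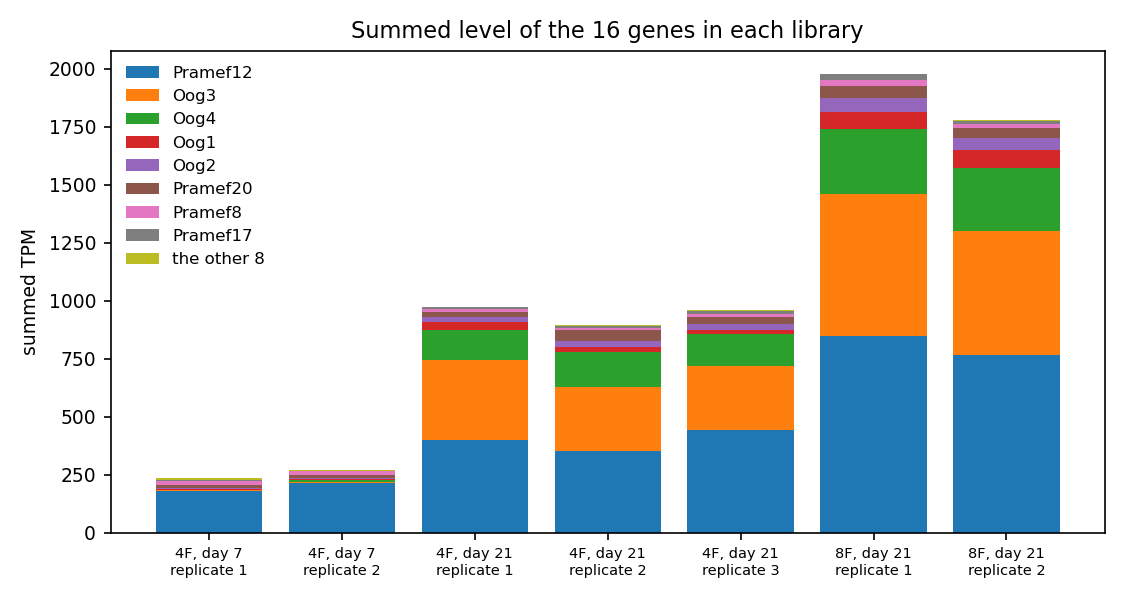
Summed TPM of the 16 genes in each of the 7 libraries, stacked by gene from a baseline of 0. The bars reach 237 and 269 TPM at day 7, 895 to 974 TPM in 4F at day 21 and 1781 and 1979 TPM in 8F at day 21, with Pramef12 at the bottom of each bar and Oog3 and Oog4 above it.

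The first comparison asked how the family changes as 4F-mini-oocytes grow from day 7 to day 21. All 4 oogenesins, Pramef12 and Pramef17 were called higher at day 21, and no member was called lower. Of the 16 genes, 11 reached 1 TPM in at least 2 libraries and were tested, and 6 of these were called higher by limma at a Benjamini-Hochberg adjusted threshold of 0.05, against 25.3% of the 21780 genes tested (7 of the 11 at an unadjusted p under 0.05). The count of lower members was 0 by limma, also at an unadjusted p under 0.05, against 15.3% of all genes. The median log2 fold change was 1.02 over the 11 members, 8 of which had a positive value, and 0.17 over all tested genes. The changes of single members are given beside that shift. The log2 fold changes are on the log2(TPM + 1) scale, which understates the change of low genes, and the folds are ratios of mean TPM.

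Oog3 (ENSMUSG00000050810.8) and Oog4 showed the largest differences. The TPM of Oog3 TPM was 6.83 and 6.37 at day 7 and 342, 276 and 277 at day 21 in 4F, and it reached 609 and 532 in 8F. The ranges of the 3 groups were far apart, and the day 21 mean exceeded that of day 7 by 45.2-fold (log2 fold change 5.29 ± 0.13 SE, limma adjusted p = 1.98e-05). This change rested on an estimated 50 and 62.1 reads at day 7 and on 2170 or more at day 21.

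Oog4 (ENSMUSG00000047799.15), which shares almost no sequence words with other genes, stood at 1.16 and 6.19 TPM at day 7, the latter library being several times the former, and at 132, 147 and 137 TPM at day 21. The mean was 37.8-fold higher (log2 fold change 5.15 ± 0.45 SE, limma adjusted p = 3.15e-04). The gap between days was far wider than that between the day 7 libraries. The order of Oog3 and Oog4 depended on the setting, since Oog4 had the larger difference with a pseudocount of 0.1 TPM (5.62 against 5.47) and without the second day 7 library (6.02 against 5.25). In 8F Oog4 stood at 282 and 271 TPM.

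Oog1 (ENSMUSG00000096576.2) and Oog2 (ENSMUSG00000066030.6) had lower TPM values. Since 89.0% and 33.4% of their words are shared with other genes, their levels were not ranked against those of Oog3 and Oog4. Oog1 was at 2.24 and 4.45 TPM at day 7 and at 34.8, 24.9 and 17.5 TPM at day 21, a 7.69-fold difference in means (log2 fold change 2.62 ± 0.35 SE, limma adjusted p = 0.00154). Oog2 was at 4.11 and 3.47 TPM and then at 20.3, 24.9 and 29.1 TPM, 6.53-fold higher (2.42 ± 0.22 SE, adjusted p = 3.76e-04). For both genes each library at day 21 exceeded each at day 7. Their values overlapped each other at day 21 in 4F.

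Pramef12 (ENSMUSG00000028591.11), a germ cell gene known for its part in maintaining spermatogenic stem cells, was the most abundant member in every library. It was already at 178 and 214 TPM at day 7, where no other member exceeded 17.3 TPM, and reached 402, 354 and 441 TPM at day 21. The groups did not overlap and the mean was 2.03-fold higher (log2 fold change 1.02 ± 0.14 SE, limma adjusted p = 0.00165). The size of this difference moved with the scaling, to 0.68 after median-of-ratios rescaling and 0.47 after quantile normalization (adjusted p = 0.0330), and the call was kept under both. At day 21 it overlapped Oog3 in no library of its group, its lowest 4F value being 354 TPM against 342 TPM for the highest of Oog3. Pramef12os, an antisense gene that overlaps Pramef12 and falls outside the naming rule, stayed at or under 6.31 TPM.

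The remaining Pramef genes divided. Pramef17 was at 1.02 and 0 TPM at day 7 and at 6.21, 8.67 and 13.5 TPM at day 21 (log2 fold change 2.82 ± 0.50 SE, limma adjusted p = 0.00488). Its groups did not overlap, and most of its words are shared with Gm13128. With a day 7 library at 0, Pramef17 met the 1 TPM rule only through its day 21 libraries. Pramef20, described as promoting the loss of nuclear DNMT1 in zygotes, was at 14.7 and 15.6 TPM and then at 21.3, 46.2 and 26.9 TPM. Its groups did not overlap, but the spread at day 21 was wide and the difference did not pass (0.93 ± 0.32 SE, adjusted p = 0.0562). It passed when the first 4F library of day 21 was left out, and when genes under 5 TPM were filtered, each of which gave 7 members called. Pramef8 was not called, at 17.3 and 15.2 TPM against 14.4, 9.04 and 14.4 TPM (-0.37, adjusted p = 0.330).

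Pramel3, Pramel4, Pramel6, Pramel7 and Pramef6 did not reach the level needed for the test. Pramel7 reached at most 0.1 TPM in any library, which is about 1 read, and Pramel6 was seen in 1 library only, at 0.276 TPM. Both are genes of naive mESCs, and neither could be tested. Pramel3 (0.207 TPM) and Pramel4 (0.497 TPM) were each above 0 in 1 library, and Pramef6 was at 0 throughout, under a 3-read limit of 0.246 to 0.366 TPM. The counts behind these values cannot show a difference between groups, and the limits cover counting error only. Pramel1 was at 7.66 and 2.88 TPM at day 7 and at 0.768 to 3.79 TPM at day 21 (-1.14, limma adjusted p = 0.182). Pramel5 was between 0 and 4.67 TPM, and Pramef25 was at 3.63 TPM in the first day 7 library and above 0 elsewhere only in 1 8F library. Without the second day 7 library, the lone remaining value put Pramef25 among the calls as a lower gene.

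**Figure D2:**
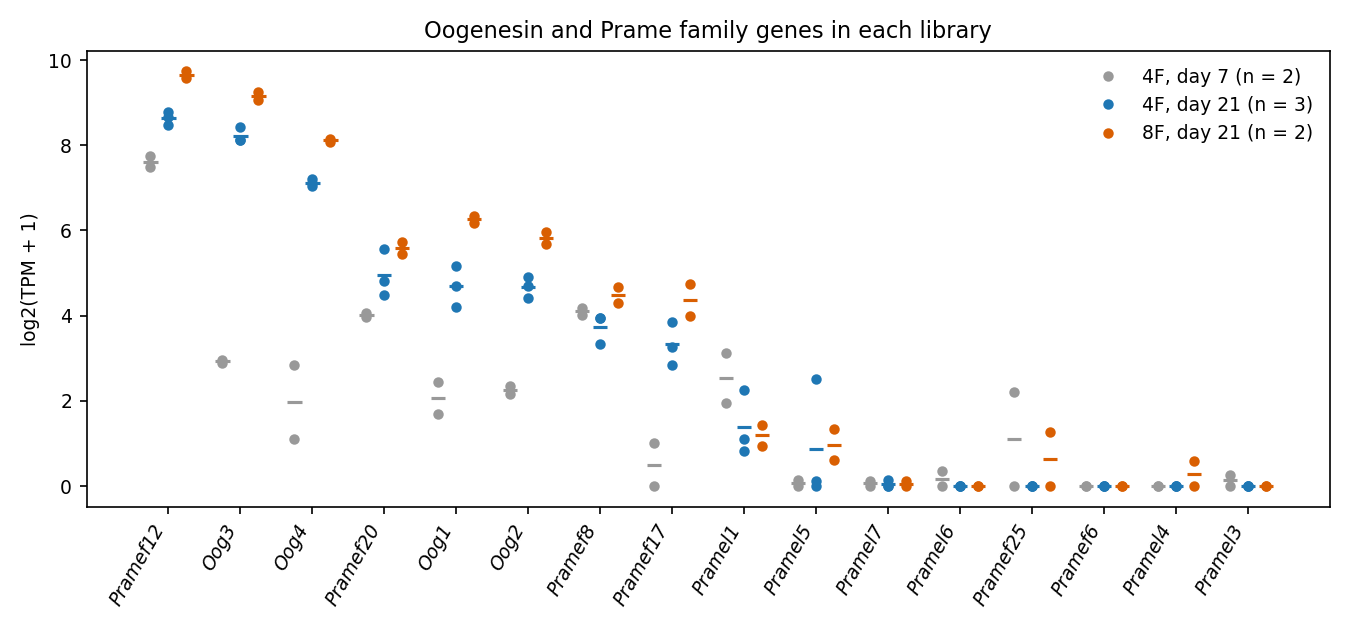
Level of each of the 16 genes as log2(TPM + 1), with 1 point per library, grey for 4F at day 7 (n = 2), blue for 4F at day 21 (n = 3) and orange for 8F at day 21 (n = 2), and a bar at each group mean. Pramef12 leads in every group, the 4 oogenesins stand well above their day 7 points at day 21, and the genes at the right end lie near 0.

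The second comparison asked whether the 4 added factors change the family at day 21. Oog1, Oog2, Oog3 and Pramef12 were higher in 8F than in 4F, and the other tested members did not pass. Of the 11 tested, 10 had a positive log2 fold change, and these 4 were called higher in 8F by limma at the same threshold, against 3.95% of all genes tested (5 of the 11 at an unadjusted p under 0.05). The number called lower was 0, also at an unadjusted p under 0.05. Of all 21780 genes tested, 961 were called lower, too small a share for 0 of 11 members to be informative. The median was 0.94 over the members and 0.06 over all tested genes.

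Pramef12 was at 402, 354 and 441 TPM in 4F and at 849.6 and 768 TPM in 8F, 2.03-fold higher (log2 fold change 1.02 ± 0.14 SE, limma adjusted p = 0.0109). Oog3 was 1.91-fold higher (0.94 ± 0.13 SE, adjusted p = 0.0131). Both genes had no overlap between the groups. Oog2 was at 20.3 to 29.1 TPM in 4F and at 61.9 and 50.3 TPM in 8F (1.15 ± 0.22 SE, adjusted p = 0.0290). Oog1 was at 17.5 to 34.8 TPM and at 71.7 and 79.7 TPM, 2.94-fold higher (1.57 ± 0.35 SE, adjusted p = 0.0420). The groups did not overlap for these 2 genes either. Oog1 had the largest difference of the 4 called genes and also the least sequence of its own. Oog4 was at 132 to 147 TPM and at 282 and 271 TPM, a log2 difference as large as that of Oog3, yet it was not called (0.99 ± 0.45 SE, adjusted p = 0.263). Its standard error takes in the spread of its day 7 libraries, and in a fit of the day 21 libraries alone it was called, which gave 5 members in all. Pramef17 (1.04), Pramef8 (0.74) and Pramef20 (0.64) also had positive differences that did not pass.

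These calls depended on the fit and on single libraries. With all libraries kept, 0 members were called by limma without the variance trend and 0 with the replicate block (5 at an unadjusted p under 0.05 in each). Oog1 also lost its call under both rescalings, without the filter on low values and with a pseudocount of 0.1 TPM. With either 8F library left out, 0 members were called by limma and 4 remained at an unadjusted p under 0.05, the lone 8F library then being assumed to vary like the other groups. Without the first or the second 4F library of day 21, 2 members (Oog3 and Pramef12) were called. The 8F values in the table carry up to 17 decimals and the 4F values up to 9, the 8F libraries had 26563 and 26750 genes above 0 against 21293 to 22316 in 4F at day 21, and reads were made on 2 instruments with different read lengths without a record here of which library came from which. These features, the separate mESC line of 8F with its Npm2-mCherry reporter, and the number of factors cannot be told apart. The 17 genes of the 2-cell embryo examined (Zscan4, Usp17l and Tcstv genes among them) are in many cases multicopy as well. At day 21 they summed to 4.14, 10.6 and 5.28 TPM in 4F and to 95.3 and 43.7 TPM in 8F. Of the 17, 7 were tested, and Usp17la and Tcstv1 were called higher in 8F by limma, against 3.95% of all genes tested. Usp17la, at 0 TPM in every 4F library, met the 1 TPM rule only through the 8F libraries and could not be called lower. The part of the 2-cell genes in the result was not tested.

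**Figure D3:**
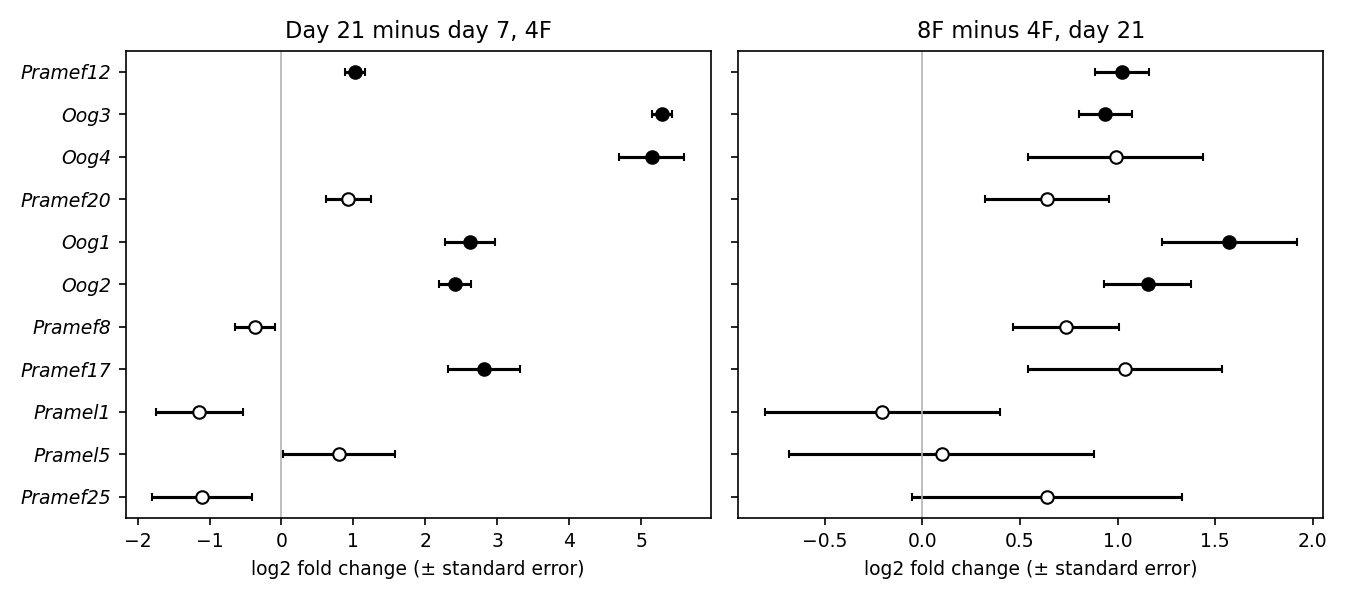
Log2 fold change on the log2(TPM + 1) scale with its standard error for the 11 tested members, from day 7 to day 21 in 4F (left) and from 4F to 8F at day 21 (right), with filled points for a limma adjusted p under 0.05. On the left Oog3 (5.29) and Oog4 (5.15) stand apart, and on the right 10 of the 11 points lie above 0, with filled points for Oog1, Oog2, Oog3 and Pramef12.

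Set against day 7 4F, the 8F libraries gave 7 members called higher, adding Pramef20 (log2 fold change 1.57 ± 0.35 SE, limma adjusted p = 0.0136), against 24.2% of all genes tested. The count of members called lower was 0 (0 at an unadjusted p under 0.05), against 2827 of the 21780 genes tested. This comparison shares its libraries with both others. The differences were 6.23 for Oog3, 6.14 for Oog4, 4.19 for Oog1, 3.86 for Pramef17, 3.57 for Oog2 and 2.04 for Pramef12. Pramef20 was no longer called, which left 6 members, when either day 7 library or either 8F library was left out. Pecam1, an endothelial marker, was also called higher in this comparison (1.41, limma adjusted p = 0.0395), and its part in the result was not tested. Factor number, mESC line, reporter, day and pool size differ together here and cannot be told apart.

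The table lists a further 32 genes that RefSeq places in the family but that carry other symbols, and these were examined after the values of the members were seen. Of the 16 that could be tested, 10 were called higher at day 21 than at day 7 in 4F by limma and 0 lower, against 25.3% and 15.3% of all genes tested, with a median log2 fold change of 1.98. Among the 10, Gm13089, Gm13088 and Gm3259 (0 TPM in each day 7 library) and C87499 (0 and 0.794 TPM) met the 1 TPM rule only through day 21 libraries. They could hardly be called lower. Gm13119, at 7.50 TPM in the second day 7 library and 0 in 4F at day 21, was not tested. The filter thus favoured higher calls. Between 8F and 4F at day 21, 4 were called higher (C87977, C87499, C87414 and Gm3106), against 3.95% of all genes, with a median of 1.24. The count called lower was 0, against 961 of the 21780 genes tested. Gm3106, at 0.0448, 0 and 0.800 TPM in 4F and 7.60 and 4.72 TPM in 8F, would not have met the 1 TPM rule without the 8F libraries. Gm13128, not called, met it only through 8F (3.34 and 1.12 TPM). Here too the filter favoured positive differences. These 4 calls were not examined under the other settings. Of the 32 genes, Gm13084 (Pramel26 in RefSeq), which shares 30.1% of the words of Oog2, had the highest group means. It was at 3.00 and 33.3 TPM at day 7, at 287, 323 and 278 TPM at day 21 and at 606 and 506 TPM in 8F. Its day 21 TPM values were near those of Oog3. The share of its own words found in other genes was not counted, so its level is uncertain. Gm13089 (Pramel23) stood at 0 in each of the day 7 libraries, and at 22.1, 28.4 and 30.2 TPM at day 21 in 4F and at 21.8 and 21.7 TPM in 8F. Its day 21 groups differed by -0.28 on the log2 scale (limma adjusted p = 0.616).

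Along chromosome 4 the levels were uneven (the plot of family genes by distance). Oog4 lay near one end of the cluster beside Pramel1 and Pramef8, which did not rise, Gm13023, Gm13084 and Gm13103 lay together near the middle, and Oog3 and Oog2 stood next to each other with C87977. Between them lay members at or near 0, such as Pramef6, Pramef25 and Pramel4. Pramef20 and Pramef12 closed the cluster.

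**Figure D4:**
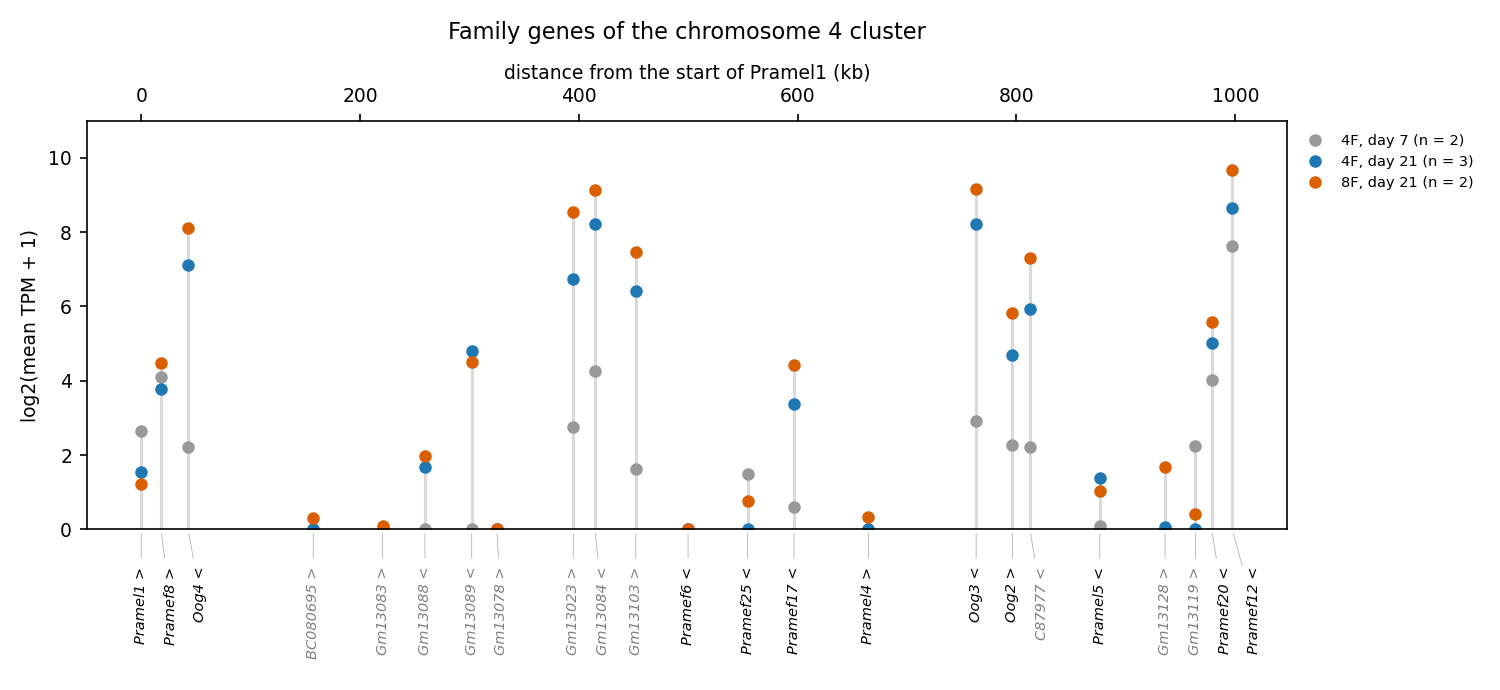
Group mean level, as log2(mean TPM + 1), of the family genes of the chromosome 4 cluster by distance in kb from the start of Pramel1, with the 12 members in black and family genes under other symbols in grey, and < or > for the strand. Genes with high day 21 levels are separated by genes at or near 0.

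Family genes whose window held the stretch TTCAGCTGAAA were compared with the rest of the family as a description. All 7 of them (the 4 oogenesins, Gm13084, Gm13089 and C87499) were tested and called higher at day 21 than at day 7 in 4F, with log2 fold changes of 2.42 to 5.29 and a median of 4.75, where 25.3% of all genes tested were called higher. In the other 3 genes the stretch began between positions -54 and -43. Of the 34 family genes whose window lacked it, 16 were tested and 6 called higher, with a median of 0.87 and a range of -1.14 to 5.22. Gm13103 (5.22) and Gm13023 (4.43) were therefore as strongly changed without the stretch. The stretch was taken from the windows of the 4 oogenesins with their rise known, so their calls followed from the choice and lend it no support. Of the other 3 genes, Gm13089 (0 TPM in each day 7 library) and C87499 (0 and 0.794 TPM) met the 1 TPM rule only through day 21 libraries. The difference in counts and medians is therefore no test of the stretch. The 7 windows are also related copies, so they are not 7 independent cases. The stretch also occurred in windows of genes that RefSeq does not name as Oog or Pramel. Gm2042, which shares most of the transcript sequence of Oog1, had a mean of 3.43 TPM at day 7, 6.15 TPM at day 21 in 4F and 47.1 TPM in 8F. In the same order, Kcnj13 had means of 6.07, 1.48 and 0.101 TPM and Pik3ip1 had means of 6.52, 12.6 and 11.7 TPM.

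The partners of PRAME-type proteins were present throughout. The 5 genes examined were the CUL2 ligase subunits Cul2, Elob, Eloc and Rbx1 and the ubiquitin-like modifier Nedd8, which is attached to cullins, and they summed to 495 to 670 TPM per library. From day 7 to day 21, Eloc (log2 fold change 0.96) and Nedd8 (0.73) rose and Elob fell (-0.51), whereas Cul2 (0.11) and Rbx1 (0.21) did not pass. Of all genes tested, 25.3% were called higher and 15.3% lower. The median of 0.21 was close to the 0.17 of all tested genes. Eloc, the elongin subunit that receptors contact, was at 37.3 and 48.0 TPM at day 7, at 98.0, 86.9 and 67.8 TPM at day 21 and at 182 and 156 TPM in 8F. It was the only 1 of the 5 called between 4F and 8F at day 21 (1.01, limma adjusted p = 0.0292), against 3.95% of all genes called higher. This call was not examined under the other settings.

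Among the 12 other CUL2 substrate receptors, 3 rose between days (Lrr1 1.75, Klhdc2 1.71 and Klhdc3 1.02) and 2 fell (Klhdc10 -0.67 and Fem1b -0.70), with a median of -0.42 over the list, against 0.17 over all tested genes. These counts were near the 25.3% and 15.3% of all genes called higher and lower. Lrr1, another leucine-rich repeat receptor, was also higher in 8F than in 4F at day 21, at 277 against 139 TPM on average (1.02, limma adjusted p = 0.0483). It was the only 1 of the 12 called there, against 3.95% of all genes called higher. The Lrr1 call and that of Klf2 below were not examined under the other settings. Uhrf1, the substrate of Pramel7, was at 637 and 730.5 TPM at day 7, at 1679, 1553 and 1775 TPM at day 21 and at 1294 and 1346 TPM in 8F. It rose between days (1.29, adjusted p = 3.69e-04) and was not called between 8F and 4F (-0.34, adjusted p = 0.153). Of 12 pluripotency genes, general ones such as Pou5f1 and Sox2 as well as naive ones, 10 were tested. Between days Pou5f1 (2.77), Esrrb (2.20), Tbx3 (2.00) and Dppa5a (1.57) rose and Zfp42 fell (-1.43), with a median of 1.01 against 0.17 over all tested genes, of which 25.3% rose and 15.3% fell. Nanog and Prdm14 were under 1 TPM in every library, as were Pramel6 and Pramel7. In 8F against 4F at day 21, 1 of the 10, Klf2, was called higher (2.51, limma adjusted p = 0.0282), against 3.95% of all genes.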

How the data were processed

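RNA-seq was measured in 7 libraries of pooled mini-oocytes, made with a stranded kit. The authors' steps were trimming (Trim Galore), alignment to the mm10 genome (HISAT2), removal of rRNA (bedtools), a restriction to uniquely mapped reads, and assignment of fragments to GENCODE vM25 genes (featureCounts), where a read over several genes was split between them. The deposited values are TPM, which are relative to all RNA of a library. No strand option is given in the sources used here. Groups and replicate numbers came from the sample titles.

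A gene was tested if 2 or more of the 7 libraries reached 1 TPM. The scale was log2(TPM + 1), and limma 3.58.1 under R 4.3.3 (lmFit, eBayes with trend) was applied in 1 fit of all 3 groups, two-sided, with Benjamini-Hochberg adjustment over all 21780 genes tested and a threshold of 0.05. The procedure was tested on simulated data. Members with a group mean of at least 10 TPM or a call in either 4F comparison are given by library, and the others by range. Exon lengths from GENCODE vM21 (same build) matched 98.1% of genes. They were used to estimate reads from the steps between low values, of which 78.9% to 83.2% per library came out whole within 0.01. Shared 50-base words were counted among annotated transcripts. Promoter windows were those of RefSeq (15 of the 16 members). The members and gene lists were chosen with earlier results of these data known, and the genes under other symbols and the shared promoter stretch were examined after seeing the values. Alternatives comprised other pseudocounts, filters, scalings, variance models and subsets of libraries.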

Additional observations from a re-analysis of the deposited data

How the results depend on the processing

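The 6 calls from day 7 to day 21 in 4F (the 4 oogenesins, Pramef12 and Pramef17) were kept in all 16 alternative settings, and no log2 fold change of the 8 members given by library changed sign in either 4F comparison under any of them. Between 8F and 4F at day 21, the 4 members called became 0 (5 at an unadjusted p under 0.05) without the variance trend, as genes called went from 1822 to 994. Leaving out each library in turn gave 0 to 4 members and 306 to 2221 genes called there, the fewest without the first 8F library (306) or the second (357), and 4089 to 8281 genes, against 8103, for 8F at day 21 minus 4F at day 7. In the 16 settings Oog1 passed in 3, Oog2 in 10, and Oog3 and Pramef12 in 12 each. Oog4 passed in 3. Replicate numbers gave no sign of pairing, since deviations of same-numbered libraries correlated between -0.0369 and 0.0111. With the replicate block, 8F against 4F gave 0 members (5 at an unadjusted p under 0.05) and 164 genes, and 6 members remained called between days. Scaling moved the split of all calls: 62.35% were higher at day 21 in 4F with TPM as deposited, 48.6% after median-of-ratios rescaling and 52.03% after quantile normalization. For 8F against day 7 the shares were 65.11%, 51.5% and 51.07%. Without the variance trend 61.07% of the calls between 8F and 4F were higher, against 47.26%. The causes were not tested. Low read numbers limit Pramel3, Pramel4, Pramel6, Pramel7 and Pramef6, for which no difference was detectable at this depth.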

Other observations

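The day 7 libraries differed within the family. The second held 33.3 TPM of Gm13084, 13.1 TPM of Gm10436 and 10.3 TPM of Gm13023, against 3.00, 1.28 and 1.13 TPM in the first, and Oog4 showed the same order. The 17 genes of the 2-cell embryo stood the other way round, with a sum of 32.5 TPM in the first library and 1.93 TPM in the second. Gm2042, which shares 85.8% of the 50-base words of Oog1, was at 1.12 and 5.73 TPM at day 7, at 6.81, 8.61 and 3.03 TPM in 4F at day 21 and at 30.5 and 63.7 TPM in 8F, so that it was low in both 4F groups and high in 8F.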
